A study of Homo sapiens with 31 samples.

Results

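Keratins are the intermediate filament proteins of epithelial cells. Each filament is built from a type I (acidic) and a type II (basic or neutral) keratin, so a cell needs at least a gene of each class. Simple, single-layered epithelia and the carcinomas that arise from them use KRT8 with KRT18 as the base pair and add KRT7 and KRT19, while hair-type keratins such as KRT81 and KRT86 belong to the cortex of the hair. Pathologists read KRT7 and KRT20 side by side to place a carcinoma, and ovarian carcinoma is usually positive for the former and negative for the latter. The genes described here are 10 of the 19221 genes of a table of mRNA levels, and 10 of the 54 type I and type II keratin genes in it. They are 5 of type II (KRT7, KRT8, KRT80, KRT81 and KRT86) and 5 of type I (KRT18, KRT19, KRT20, KRT23 and KRT10). They were chosen by name and on measured values of these libraries, so their levels and differences are given as a description and no test of them is made.

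The libraries came from cell lines that the study used as models of ovarian cancer. Its authors acknowledge that the origin of C13* makes its use questionable. They also state that A2780 was reported as an unlikely line of high-grade serous ovarian cancer. C13* is a cisplatin-resistant line that is proficient in homologous recombination, and it carried a lentiviral shRNA, either a control (C13* shCON, n = 7) or against CEBPB, the gene of the transcription factor C/EBPβ (C13* shCEBPB, n = 8). A2780 was sequenced as the untreated parent line (A2780, n = 8) and as a strain kept in rising olaparib, a PARP inhibitor, until it was resistant (A2780 OlaR, n = 8), which is a single derived strain. The questions were what loss of C/EBPβ and what acquired olaparib resistance change in the transcriptome. Values are FPKM (fragments on a gene, scaled by transcript length and by the mapped fragments of the library), so levels can be set side by side between genes. Differences are of mean log2(FPKM + 1), with the standard error (SE), and on this scale the change of a low gene is understated.

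CEBPB itself lay between 75.2 and 101 FPKM in C13* shCON (median 85.4) and between 30.2 and 58.7 in C13* shCEBPB (median 49.5). The libraries did not overlap, and the difference was -0.87 (SE 0.11, limma adjusted p = 1.42e-06). The mean was 47.1 ± 9.05 (SD, n = 8) in C13* shCEBPB against 85.8 ± 9.93 (SD, n = 7) in C13* shCON. In A2780 and A2780 OlaR it was 99.7 ± 7.63 and 112 ± 11.6 (SD, n = 8 each), with overlapping libraries and a difference of 0.16 (SE 0.06, limma adjusted p = 0.0202), which was -0.055 within libraries 1 to 3. Summed FPKM was 417556 to 454578 per library, and relative depth, read from the steps of low values, spanned a factor of 1.42. The study's methods state a minimum yield for each sample, but FPKM give no read totals, so the number of reads behind a value is unknown.

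The 4 groups did not lie at equal distances, and this touches each result below. Of 12967 genes that reached 1 FPKM in 7 or more libraries, 69 (0.532%) had group means of log2(FPKM + 1) at least 1 apart between A2780 OlaR and C13* shCON, which the labels give as different lines. Between A2780 OlaR and its labelled parent A2780 there were 4517 such genes (34.8%), and between C13* shCEBPB and C13* shCON there were 3585 (27.6%). On that scale none of the 10 keratins was 1 apart between A2780 OlaR and C13* shCON, against 5 in each of the labelled comparisons. The scale hides ratios at levels well under 1 FPKM, such as that of KRT20, whose means were 0.00345 in A2780 OlaR and 0.0327 in C13* shCON. For C13* shCON replicate 1 the cell line field of the labels holds A2780 whereas its title holds C13*. Without that library no difference of the 10 keratins between the C13* groups moved by more than 0.0539, and 10065 genes in place of 10166 were called. An effect of knockdown or of resistance and a difference in which cells were sequenced cannot be told apart in these libraries.

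The label of an epithelial cancer line was checked against marker genes. All 5 epithelial markers (EPCAM, CDH1, CLDN4, CLDN7 and MUC1) had a mean of at least 1 FPKM in C13* shCON and A2780 OlaR, against 3 in C13* shCEBPB and 3 in A2780. Their summed FPKM was 403 to 448 in C13* shCON, 425 to 448 in A2780 OlaR, 119 to 145 in C13* shCEBPB and 13.4 to 20.3 in A2780. CDH1, the epithelial cadherin, averaged 82.9 ± 4.25 FPKM (SD, n = 7) in C13* shCON and 0.0280 ± 0.0247 (SD, n = 8) in A2780, and EPCAM, the epithelial adhesion molecule, averaged 111 ± 3.44 and 1.20 ± 0.218. Both were also low in C13* shCEBPB, with 0.655 ± 0.171 for CDH1 and 0.567 ± 0.192 for EPCAM (SD, n = 8), so these defining markers were near 0 in both groups. The sum in C13* shCEBPB was mostly MUC1, at 92.4 ± 12.2 FPKM (SD, n = 8) against 1.99 ± 0.391 in C13* shCON (SD, n = 7), which ran opposite to the other 4 markers. Of 6 markers of ovarian carcinoma, 2, 2, 1 and 2 reached 1 FPKM in C13* shCON, C13* shCEBPB, A2780 and A2780 OlaR, and WT1 did so in no group mean. Equal counts did not mean the same genes. MSLN reached 1 FPKM in every group, PAX8 in C13* shCON and A2780 OlaR only, and SOX17 in C13* shCEBPB only. Of 12 markers of leukocytes, endothelium and fibroblasts, 2, 4, 6 and 3 reached 1 FPKM, with sums of 66.7 to 74.0, 27.0 to 37.3, 116 to 143 and 44.7 to 52.9. CD3E was listed at 0 in every library. PTPRC, the leukocyte phosphatase CD45, had a value of 0 in all 7 C13* shCON libraries but averaged 85.9 ± 7.94 FPKM in A2780 (SD, n = 8). CD68, also on the leukocyte list, ran the other way, with 65.4 ± 2.81 FPKM in C13* shCON (SD, n = 7) and 2.22 ± 0.348 in A2780 (SD, n = 8). CD68 averaged 11.7 in C13* shCEBPB and 41.9 in A2780 OlaR. KRT19 was high and low in the same groups as EPCAM and CDH1, whereas KRT7, KRT8, KRT18, KRT80, KRT86 and KRT10 were higher in C13* shCEBPB than in C13* shCON and so ran against them there. The part of any of these markers in the keratin levels was not tested.

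Sequences bear on how 2 pairs of these genes can be read. KRT81 lies within the annotated span of KRT86, on the opposite strand of chromosome 12 of hg38. KRT81 and KRT86 are near copies in part of their length. Their coding sequences are identical over 605 bases (positions 61 to 665, counted from the start codon), which is longer than a 150-base read. The stretches below cover coding positions 626 to 705 of each gene, at the end of that run, from the GENCODE 44 annotation. The capitals mark the 2 bases that differ and are shown because reads inside the identical run fit both genes.
KRT81 (chr12:52288391-52289228, minus strand, across an intron): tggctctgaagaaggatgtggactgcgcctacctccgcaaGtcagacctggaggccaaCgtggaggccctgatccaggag
KRT86 (chr12:52304158-52304997, plus strand, across an intron): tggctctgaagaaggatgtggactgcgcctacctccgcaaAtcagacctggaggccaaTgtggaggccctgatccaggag
The canonical transcripts shared 456 windows of 150 bases, which was 25.6% of the windows of KRT81 and 21.7% of those of KRT86. No window of the other 8 keratins was found on the same strand of another annotated transcript. KRT86 also shares 126 exonic bases with an annotated pseudogene on its own strand. How the counting assigned reads in these shared stretches is not stated, so the levels of KRT81 and KRT86 are uncertain. The other pair is KRT8 and KRT18, which sit on opposite strands and share 525 exonic bases in the annotation. The sources used here do not say if fragments were assigned by strand, so it is unknown how reads in the shared bases were counted.

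The promoter of KRT10 and that of KRT8 are shown because C/EBPβ was the factor knocked down. RefSeq promoter windows (250 bases before to 50 after the start, GRCh38.p14) were matched for 3 of the 10 genes, KRT8, KRT20 and KRT10. Motifs were searched on both strands by their letters, TTNNGNAA for C/EBP, TGANTCA for AP-1, TATAAA for the TATA box, GGGCGG for the GC box and CCAAT for the CCAAT box. Capitals mark the matches.
KRT8 (chr12:52926420-52926719, minus strand): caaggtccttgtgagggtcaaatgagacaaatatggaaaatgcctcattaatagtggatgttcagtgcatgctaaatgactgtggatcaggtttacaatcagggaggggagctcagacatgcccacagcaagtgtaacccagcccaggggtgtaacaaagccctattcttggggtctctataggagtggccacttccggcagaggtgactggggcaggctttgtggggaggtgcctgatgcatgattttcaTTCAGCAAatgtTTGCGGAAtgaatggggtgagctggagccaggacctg
KRT10 (chr17:40822565-40822864, minus strand): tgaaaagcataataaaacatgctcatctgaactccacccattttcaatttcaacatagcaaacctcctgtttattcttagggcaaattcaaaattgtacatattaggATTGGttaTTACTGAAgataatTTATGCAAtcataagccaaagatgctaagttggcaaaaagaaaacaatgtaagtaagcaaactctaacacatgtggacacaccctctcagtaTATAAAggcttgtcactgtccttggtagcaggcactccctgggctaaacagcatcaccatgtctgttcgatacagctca
The KRT8 window held 2 C/EBP matches, TTCAGCAA and TTGCGGAA, both after the start (positions 1 and 13). The KRT10 window held 2, TTACTGAA and TTATGCAA, both before the start (positions -135 and -121). It also held 1 TATA box and 1 CCAAT box on the reverse strand (ATTGG). KRT20 held 1 C/EBP and 1 CCAAT match. None of the 3 windows held an AP-1 or GC box match. Across 35116 RefSeq promoters, 36.8% held the C/EBP letters, 7.71% AP-1, 11.5% a TATA box, 45.0% a GC box and 34.6% a CCAAT box. A match describes letters and not binding. The KRT8 window lies inside the GENCODE span of the gene, which begins further upstream.

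KRT8 is the type II partner of KRT18 in every simple epithelium and lies at 52897187 to 52949954 of chromosome 12, minus strand, with 8 exons in its canonical transcript. In FPKM, KRT8 was 427 to 491 in C13* shCON (median 461), 747 to 992 in C13* shCEBPB (median 889), 5.26 to 6.66 in A2780 (median 5.87) and 440 to 522 in A2780 OlaR (median 496). A2780 thus held little KRT8 mRNA, and the highest group was C13* shCEBPB. C13* shCEBPB did not overlap any other group, whereas C13* shCON and A2780 OlaR overlapped. The mean rose from 459 ± 21.1 (SD, n = 7) in C13* shCON to 882 ± 91.6 (SD, n = 8) in C13* shCEBPB, which was 1.92-fold, a difference of 0.93 (SE 0.06). From A2780 to A2780 OlaR the mean was 81.9-fold higher, a difference of 6.13 (SE 0.04).

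KRT18, the type I partner of KRT8, lies next to it at 52948871 to 52952906 of chromosome 12, plus strand, with 7 exons. Its FPKM was 303 to 354 in C13* shCON (median 318), 514 to 586 in C13* shCEBPB (median 525), 78.1 to 85.5 in A2780 (median 81.3) and 269 to 309 in A2780 OlaR (median 292). The order of the groups was that of KRT8 except that C13* shCON and A2780 OlaR, which overlapped, changed places. KRT18 was 1.67-fold higher in C13* shCEBPB than in C13* shCON (0.74, SE 0.04) and 3.58-fold higher in A2780 OlaR than in A2780 (1.82, SE 0.03). In A2780 KRT18 stayed high where KRT8 did not, so the ratio of KRT18 to KRT8 FPKM was 13.9 ± 0.957 (SD, n = 8) there. It was 0.697 ± 0.0324 (SD, n = 7) in C13* shCON, 0.613 ± 0.0752 in C13* shCEBPB and 0.604 ± 0.0248 in A2780 OlaR (SD, n = 8 each). In bulk samples, fewer cells of a type and less RNA per cell cannot be told apart.

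KRT7 is a type II keratin of glandular and ductal epithelia and a routine marker of ovarian carcinoma. It lies at 52232520 to 52252186 of chromosome 12, plus strand, with 9 exons, of which 282 exonic bases are shared with the antisense gene KRT7-AS. KRT7 was 6.59 to 9.86 FPKM in C13* shCON (median 7.46), 492 to 636 in C13* shCEBPB (median 603), 0 to 0.173 in A2780 (median 0.0507) and 6.62 to 12.3 in A2780 OlaR (median 9.80). C13* shCEBPB stood apart from every other group, with KRT7 as gene 100 in order of mean level among all genes, against 7482 in C13* shCON. Its mean was 583 ± 56.1 (SD, n = 8) against 8.02 ± 1.34 (SD, n = 7), 72.6-fold higher (6.02, SE 0.09). A2780 listed KRT7 at 0 in 2 libraries, and the difference of A2780 OlaR from it was 3.29 (SE 0.12), or 5.96 with a pseudocount of 0.1. C13* shCON and A2780 OlaR overlapped.

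KRT19, a type I keratin that lacks most of the tail domain, lies at 41523617 to 41528308 of chromosome 17, minus strand, with 6 exons. It was 1381 to 1593 FPKM in C13* shCON (median 1442), 0 to 0.0976 in C13* shCEBPB (median 0.0165), 0.0403 to 0.481 in A2780 (median 0.139) and 1592 to 2035 in A2780 OlaR (median 1876). KRT19 was thus among the most abundant mRNAs of C13* shCON (place 30 of all genes) and of A2780 OlaR (place 17) and near 0 in the other groups. KRT19 was listed at 0 in 4 of the 8 C13* shCEBPB libraries. The difference of C13* shCEBPB from C13* shCON was -10.48 (SE 0.03), and that of A2780 OlaR from A2780 was 10.59 (SE 0.09). With a pseudocount of 0.1 these were -13.51 and 12.76. KRT19 was the member that moved in opposite directions in the labelled comparisons by the widest margin. C13* shCEBPB and A2780 overlapped, as did C13* shCON and A2780 OlaR.

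KRT20 is a type I keratin of intestinal epithelium, urothelium and Merkel cells, at 40875889 to 40885242 of chromosome 17, minus strand, with 8 exons. Its FPKM was 0 to 0.188 in C13* shCON (median 0), 0.128 to 0.613 in C13* shCEBPB (median 0.264), 0 in all 8 A2780 libraries and 0 to 0.0276 in A2780 OlaR (median 0). No group mean reached 1 FPKM, and C13* shCEBPB, where all 8 libraries were above 0, overlapped C13* shCON. The difference between these was 0.36 (SE 0.07) with a pseudocount of 1 and 1.73 with 0.1. Levels this low rest on few reads, whose number is unknown.

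**Figure D1:**
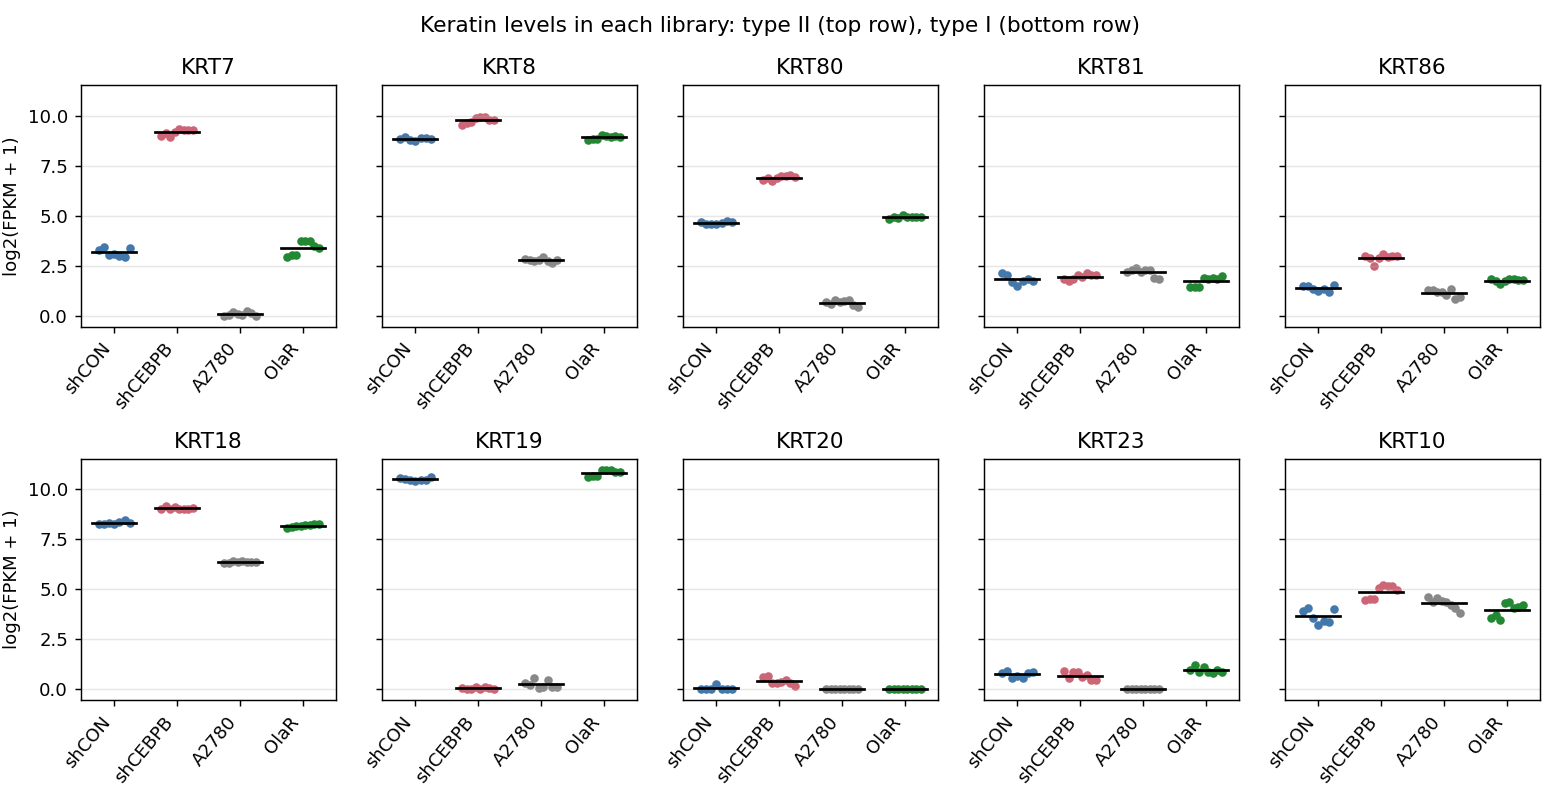
Level of each keratin, as log2(FPKM + 1), in each of the 31 libraries, with the 5 type II genes in the top row and the 5 type I genes in the bottom row. Points are libraries and the line is the group mean, and KRT19 sits at 1381 FPKM or more in every C13* shCON and A2780 OlaR library and at 0.481 or less in every other, while KRT7 is highest in C13* shCEBPB.

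KRT80 is a type II keratin of many differentiating epithelia, close to desmosomes in cells. It lies at 52168996 to 52192014 of chromosome 12, minus strand, with 9 exons. KRT80 was 22.7 to 25.6 FPKM in C13* shCON (median 24.2), 104 to 128 in C13* shCEBPB (median 120), 0.346 to 0.730 in A2780 (median 0.608) and 27.6 to 32.3 in A2780 OlaR (median 29.5). No 2 groups overlapped, which among the 10 genes held for KRT80 alone. KRT80 was 4.95-fold higher in C13* shCEBPB than in C13* shCON (2.26, SE 0.04) and 51.0-fold higher in A2780 OlaR than in A2780 (4.27, SE 0.05), where the level of A2780 was under 1 FPKM.

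KRT81 and KRT86 are type II keratins of the hair cortex, at 52285913 to 52291534 (minus strand, 9 exons) and 52249300 to 52309163 (plus strand, 11 exons) of chromosome 12. KRT81 was 1.81 to 3.37 FPKM in C13* shCON (median 2.31), 2.32 to 3.41 in C13* shCEBPB (median 2.91), 2.50 to 4.17 in A2780 (median 3.71) and 1.68 to 2.88 in A2780 OlaR (median 2.56). All 4 groups overlapped each other, and the differences were 0.14 (SE 0.10) between the C13* groups and -0.45 (SE 0.11) for A2780 OlaR against A2780. KRT86 was 1.30 to 1.88 FPKM in C13* shCON (median 1.55), 4.63 to 7.32 in C13* shCEBPB (median 6.66), 0.785 to 1.47 in A2780 (median 1.24) and 1.94 to 2.58 in A2780 OlaR (median 2.41). Here C13* shCEBPB stood above the rest, A2780 OlaR came next without overlap, and C13* shCON and A2780 overlapped. KRT86 was 4.05-fold higher in C13* shCEBPB than in C13* shCON (1.52, SE 0.08) and 1.98-fold higher in A2780 OlaR than in A2780 (0.63, SE 0.07). The ratio of KRT86 to KRT81 was 0.646 ± 0.115 (SD, n = 7) in C13* shCON, 2.28 ± 0.357 in C13* shCEBPB, 0.342 ± 0.0448 in A2780 and 1.08 ± 0.234 in A2780 OlaR (SD, n = 8 each). These near copies, whose shared stretch is printed above, therefore did not keep 1 ratio across the groups.

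KRT23, a type I keratin found in several glandular epithelia, lies at 40922700 to 40937646 of chromosome 17, minus strand, with 9 exons. Its FPKM was 0.479 to 0.902 in C13* shCON (median 0.765), 0.382 to 0.871 in C13* shCEBPB (median 0.592), 0 to 0.0278 in A2780 (median 0) and 0.772 to 1.35 in A2780 OlaR (median 0.893). KRT23 was listed at 0 in 7 of 8 A2780 libraries, which overlapped none of the other groups, and the other 3 groups overlapped each other. The differences were -0.07 (SE 0.08) for C13* shCEBPB against C13* shCON and 0.95 (SE 0.05) for A2780 OlaR against A2780. Quantile normalization turned the former to 0.17.

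KRT10 is the type I keratin of the upper layers of the epidermis, where it pairs with KRT1. It lies at 40818117 to 40822614 of chromosome 17, minus strand, with 8 exons, and shares 61 exonic bases with the antisense gene KRT10-AS1. KRT10 was 8.41 to 16.0 FPKM in C13* shCON (median 10.8), 21.0 to 36.4 in C13* shCEBPB (median 31.8), 13.1 to 23.8 in A2780 (median 19.9) and 9.94 to 19.4 in A2780 OlaR (median 16.1). C13* shCEBPB lay above C13* shCON and A2780 OlaR without overlap and overlapped A2780, and the other 3 groups overlapped each other. The mean was 2.46-fold higher in C13* shCEBPB than in C13* shCON (1.23, SE 0.18), and A2780 OlaR differed from A2780 by -0.33 (SE 0.15).

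Across the 10 genes, 7 did not overlap between C13* shCEBPB and C13* shCON, 6 higher and 1 (KRT19) lower in C13* shCEBPB. Of all 12006 genes that passed the filter on low values, 66.0% did not overlap in that comparison. Between A2780 OlaR and A2780, 7 of the 10 did not overlap, all 7 higher in A2780 OlaR, and 74.1% of 12458 genes did not overlap. Since the genes were chosen on these values, nothing is read from those counts. KRT20 and KRT23 did not pass the filter in either comparison, and of the 8 keratins that did, 7 did not overlap between the C13* groups and 6 between the A2780 groups.

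**Figure D2:**
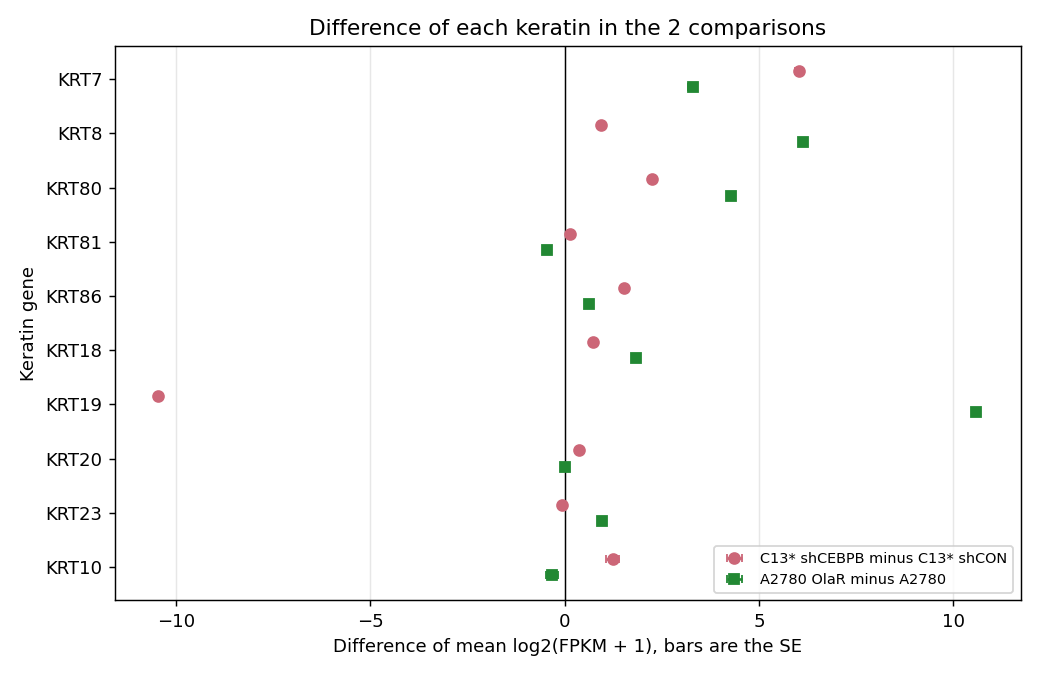
Difference of mean log2(FPKM + 1) of each keratin between C13* shCEBPB and C13* shCON (circles) and between A2780 OlaR and A2780 (squares), with bars for the SE, which for most points are within the symbol. KRT19 lies at -10.48 in the former and 10.59 in the latter, and KRT7, KRT8, KRT80, KRT86 and KRT18 lie above 0 in both.

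The 10 genes made up different shares of all keratin mRNA. Summed over the 54 keratins (28 of type I and 26 of type II), FPKM was 4750 ± 208 (SD, n = 7) in C13* shCON, 2413 ± 246 in C13* shCEBPB, 114 ± 5.15 in A2780 and 5393 ± 464 in A2780 OlaR (SD, n = 8 each). The 10 genes held 48.4%, 89.7%, 98.5% and 49.5% of that sum. KRT19 alone held a median of 30.8% in C13* shCON and 34.0% in A2780 OlaR. In C13* shCEBPB the leading members were KRT8 with 36.6%, KRT7 with 24.2% and KRT18 with 22.4%, and in A2780 they were KRT18 with 71.8% and KRT10 with 16.7%. Of the 44 other keratins, 34 were under 1 FPKM in every group mean, and those with the highest means were KRT5, KRT17, KRT13, KRT14 and KRT15, keratins of stratified epithelia. KRT5 averaged 1530 ± 88.8 FPKM in C13* shCON and 1813 ± 155 in A2780 OlaR, was 0.0134 ± 0.0158 in C13* shCEBPB and was listed at 0 in all 8 A2780 libraries. The balance of the obligate partners shifted as well, with a ratio of summed type I to type II FPKM of 1.30 ± 0.0259 (SD, n = 7) in C13* shCON, 0.514 ± 0.0288 in C13* shCEBPB, 8.54 ± 0.791 in A2780 and 1.26 ± 0.0239 in A2780 OlaR (SD, n = 8 each). The ratio was nearest to 1 in the groups with the highest KRT19, of type I, which were also those with the highest KRT5, of type II. KRT18 with KRT19 over KRT7 with KRT8 gave 3.83 ± 0.171, 0.369 ± 0.0422, 13.7 ± 0.863 and 4.31 ± 0.144 in the same order.

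**Figure D3:**
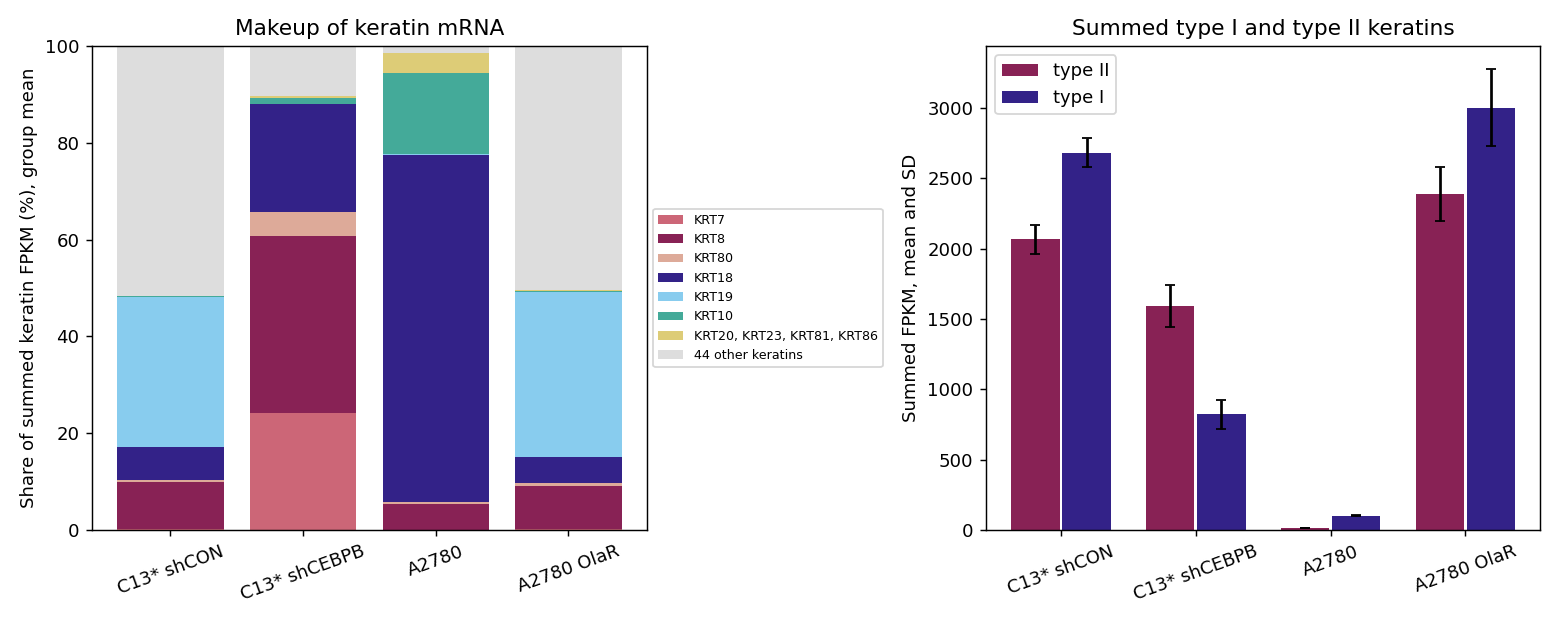
Left, share of each keratin in the summed FPKM of 54 keratin genes (%, mean of each group). Right, summed FPKM of type II and type I keratins (mean, bars are SD), where A2780 has a keratin sum of 114 against 2413 or more in the other groups and KRT18 holds 71.8% of it.

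The libraries carry numbers in their codes, and members differed between libraries 1 to 3 and 4 to 8 of a group. What these numbers stand for is not stated. In A2780 OlaR, 6 of the 10 genes did not overlap between the ranges (KRT7, KRT8, KRT18, KRT19, KRT81 and KRT10), in C13* shCEBPB 4 did not (KRT7, KRT8, KRT81 and KRT10), and in C13* shCON and A2780 the number was 0. Over 12967 genes, 51.5%, 47.0%, 4.86% and 18.9% did not overlap between the ranges in A2780 OlaR, C13* shCEBPB, C13* shCON and A2780. KRT10 averaged 11.0 FPKM in libraries 1 to 3 and 17.6 in libraries 4 to 8 of A2780 OlaR, and 21.5 and 34.0 in those of C13* shCEBPB, ratios of 1.60 and 1.58. In A2780, KRT10 ran the other way, with 22.0 and 17.3. Within libraries 1 to 3 the KRT10 difference of A2780 OlaR from A2780 was -0.94, and within libraries 4 to 8 it was 0.04. For C13* shCEBPB against C13* shCON these values were 0.63 and 1.62. KRT81 likewise gave -0.86 and -0.21 for A2780 OlaR against A2780, and -0.16 and 0.34 for C13* shCEBPB against C13* shCON (0.14 over all). KRT10 thus changed sign between the ranges in the A2780 groups and kept it in the C13* groups, and KRT81 did the reverse. KRT7 (5.77 within libraries 1 to 3 and 6.02 over all, in the C13* groups), KRT8 and KRT19 kept their sign in both ranges and in both comparisons.

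**Figure D4:**
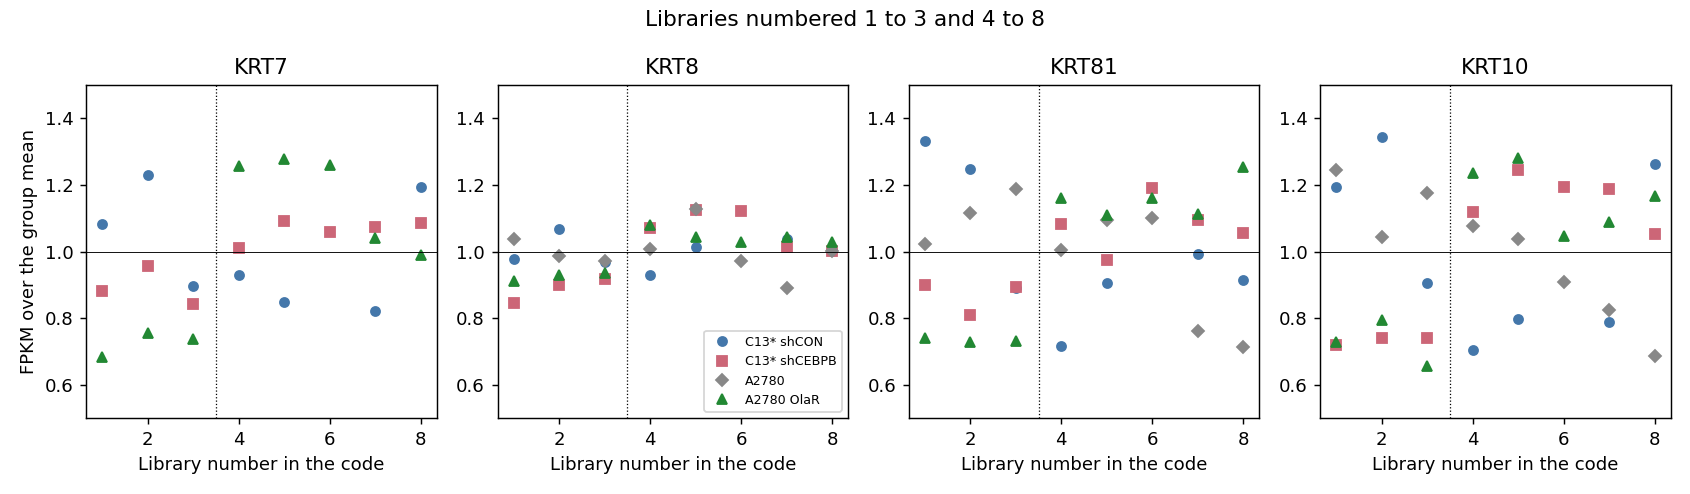
FPKM of KRT7, KRT8, KRT81 and KRT10 over the mean of the group, by the library number, with symbols for the 4 groups and a dotted line between libraries 3 and 4. KRT7 in A2780 is left out since its level is near 0, and in A2780 OlaR the libraries 1 to 3 lie below the libraries 4 to 8 in each panel.

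For the 6 members with a group mean of at least 10 FPKM, the genes outside the keratin family whose profile over the 31 libraries was nearest were found, by the root mean square (RMS) of the difference of centred log2(FPKM + 1). KRT18 lay nearest to FEN1 (RMS 0.12), a flap endonuclease of DNA replication and repair, then CLPB and MAT2A (0.13 each). KRT8 lay nearest to LGALS3 (0.17), which encodes galectin 3, then TRIM29 (0.18) and HTATIP2 (0.26). KRT80 was nearest to PYCR1 (0.15), an enzyme of proline synthesis, then PTGS1 (0.28) and COL4A1 (0.33). On that scale these profiles were matched to within a small part of the range of each gene, since KRT80 spans differences above 6 (6.24 between C13* shCEBPB and A2780). Ratios of FPKM were not matched at low levels. In C13* shCON and A2780, KRT8 averaged 459 and 5.90 FPKM and TRIM29 averaged 67.2 and 0.0501. KRT10 was nearest to MYDGF (0.13), HNRNPA0 (0.14) and SDF2L1 (0.15). KRT7 and KRT19 had more distant neighbours, MCAM (0.74) and SPINK5 (0.89) for KRT7, and ZBTB7C (0.89), SYT8 (1.13) and ALDH3A1 (1.64) for KRT19. MCAM, a cell adhesion molecule, averaged 2.12, 170, 0.0470 and 2.38 FPKM in C13* shCON, C13* shCEBPB, A2780 and A2780 OlaR, and ZBTB7C averaged 497, 0.249, 0.00140 and 518. The 31 libraries share 4 groups, so these distances mostly compare group levels.

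Genes that act with keratins were taken from 4 lists and tested with limma over all genes that passed the filter. The lists were written with earlier results of these data known, so the counts on them are a description and not independent evidence. The background in that test was high. Of 12006 genes, 84.7% had an adjusted p under 0.05 between C13* shCEBPB and C13* shCON, 38.9% higher and 45.7% lower in C13* shCEBPB, with 12.7% at least 2-fold higher and 16.7% at least 2-fold lower. Between A2780 OlaR and A2780 these shares were 89.8% of 12458 genes, 40.1% higher, 49.7% lower, 15.5% at least 2-fold higher and 20.1% at least 2-fold lower. The median difference of all tested genes was -0.07 and -0.12.

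Keratin linkers and binding proteins, which anchor filaments at desmosomes or bind their subunits, were all tested (18 of 18). Between the C13* groups 12 passed, 3 higher and 9 lower in C13* shCEBPB, with a median of -0.24. Of these, PKP1 and PKP2 passed the filter through C13* shCON alone, so their direction was set by the filter. PKP2, plakophilin 2 of the desmosomal plaque, had a mean of 18.7 ± 1.12 FPKM in C13* shCON (SD, n = 7) and of 0.624 ± 0.230 in C13* shCEBPB (SD, n = 8), a difference of -3.61 (SE 0.08, limma adjusted p = 7.03e-18). SFN, the 14-3-3 sigma protein that binds keratins, changed by -3.19 (SE 0.14, limma adjusted p = 2.66e-13), while TCHP (trichoplein) rose by 0.91 and EPPK1 (epiplakin) rose as well, with means of 10.8 ± 1.82 (SD, n = 7) and 23.2 ± 6.48 FPKM (SD, n = 8). Between A2780 OlaR and A2780 all 18 passed, 15 higher and 3 lower, with a median of 2.22, though 4 of them passed the filter through A2780 OlaR alone. SFN rose by 8.89 and the small heat shock protein HSPB1 by 7.36, whereas the chaperone DNAJB6 changed by -0.94 and YWHAZ by -0.14 (limma adjusted p = 0.0372). YWHAZ was not called with the replicate block and was 0.11 within libraries 1 to 3.

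Epithelial transcription and splicing regulators counted 22, of which 18 were tested in the C13* groups and all 18 passed, 15 lower and 3 higher in C13* shCEBPB, with a median of -1.42. ESRP1, an epithelial splicing regulator, went from 45.1 ± 3.20 FPKM (SD, n = 7) to a level listed at 0 in 7 of 8 libraries (-5.52, SE 0.04, limma adjusted p = 6.14e-24). EHF, an ETS factor of epithelia, changed by -5.25, and KLF4, a Krüppel-like factor of epithelial differentiation, rose by 2.77. Of these 18, 8 passed the filter through C13* shCON alone (EHF and ESRP1 among them), so their direction was set by the filter, and 9 had means of at least 1 FPKM in both groups, 2 of them higher in C13* shCEBPB. In A2780 OlaR 17 of 17 tested genes were higher than in A2780, with a median of 1.86, led by EHF (4.81) and GRHL2 (4.54), a grainyhead factor listed at 0 in all 8 A2780 libraries and at 22.2 ± 0.718 FPKM (SD, n = 8) in A2780 OlaR. Here 6 of the 17, EHF and GRHL2 included, passed through A2780 OlaR alone, and 11 had means of at least 1 FPKM in both groups. Of the 5 genes not tested, all low, 3 had a lower mean in A2780 OlaR (ELF5, GATA3 and HNF4A) and 2 a higher one. KRT7, KRT8, KRT18, KRT80 and KRT86 were highest in C13* shCEBPB. At least 2-fold lower there than in C13* shCON were 11 of the 18 regulators, which include the 8 with a direction set by the filter. The rest of the 11 were ETS2, KLF5 and TFAP2C.

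Hair follicle regulators and partners counted 10, of which 8 were tested and 8 passed in the C13* groups, 5 higher and 3 lower, with a median of 0.75. FOXN1, a transcription factor of the hair follicle and thymus, rose by 3.42, with means of 0.258 ± 0.140 FPKM in C13* shCON (SD, n = 7) and 12.6 ± 2.63 in C13* shCEBPB (SD, n = 8), and SELENBP1 rose by 3.39. PADI3, which citrullinates hair follicle proteins, changed by -4.75 and MSX2 by -1.35. FOXN1 passed the filter through C13* shCEBPB alone and PADI3 through C13* shCON alone, so their direction was set by the filter. In the A2780 groups 6 of the 10 were tested and these were higher in A2780 OlaR (median 1.23), led by PADI3 (5.53) and LEF1 (2.83). PADI3, LEF1 and DLX3 passed the filter through A2780 OlaR alone, and among the 4 genes not tested TCHH, the hair follicle protein trichohyalin, had a lower mean there (0.0238 against 0.886 FPKM) and 3 had a higher one.

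Other intermediate filament genes were tested at 9 of 15 in the C13* groups, where 7 passed, 6 higher and 1 lower in C13* shCEBPB, and at 10 of 15 in the A2780 groups, where 10 passed, 4 higher and 6 lower in A2780 OlaR, with medians of 0.54 and -1.79. VIM, vimentin of mesenchymal cells, was 8.49 to 10.5 FPKM in C13* shCON, 328 to 360 in C13* shCEBPB, 784 to 827 in A2780 and 0.0857 to 0.265 in A2780 OlaR. VIM rose by 4.99 between the C13* groups (SE 0.04, limma adjusted p = 8.61e-24) and changed by -9.45 between the A2780 groups (SE 0.03, limma adjusted p = 4.50e-31), so it moved opposite to KRT19 in each. The synemin gene SYNM rose by 2.18 and the neurofilament gene NEFL changed by -2.30 between the C13* groups. INA (alpha-internexin) changed by -5.08 in A2780 OlaR, where the lamin genes LMNB1 and LMNA rose by 1.30 and 1.02. Between the A2780 groups, VIM, INA and NEFH passed the filter through A2780 alone and BFSP1 through A2780 OlaR alone. Between the C13* groups, INA passed through C13* shCEBPB alone and NEFL through C13* shCON alone. The direction of these genes in those comparisons was thus set by the filter. Among genes with means of at least 1 FPKM in both groups, 6 of 7 were higher in C13* shCEBPB and 3 of 6 in A2780 OlaR. A2780 was thus the group with the highest vimentin and the lowest summed keratin, and C13* shCEBPB carried both vimentin and high KRT7, KRT8 and KRT18.

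**Figure D5:**
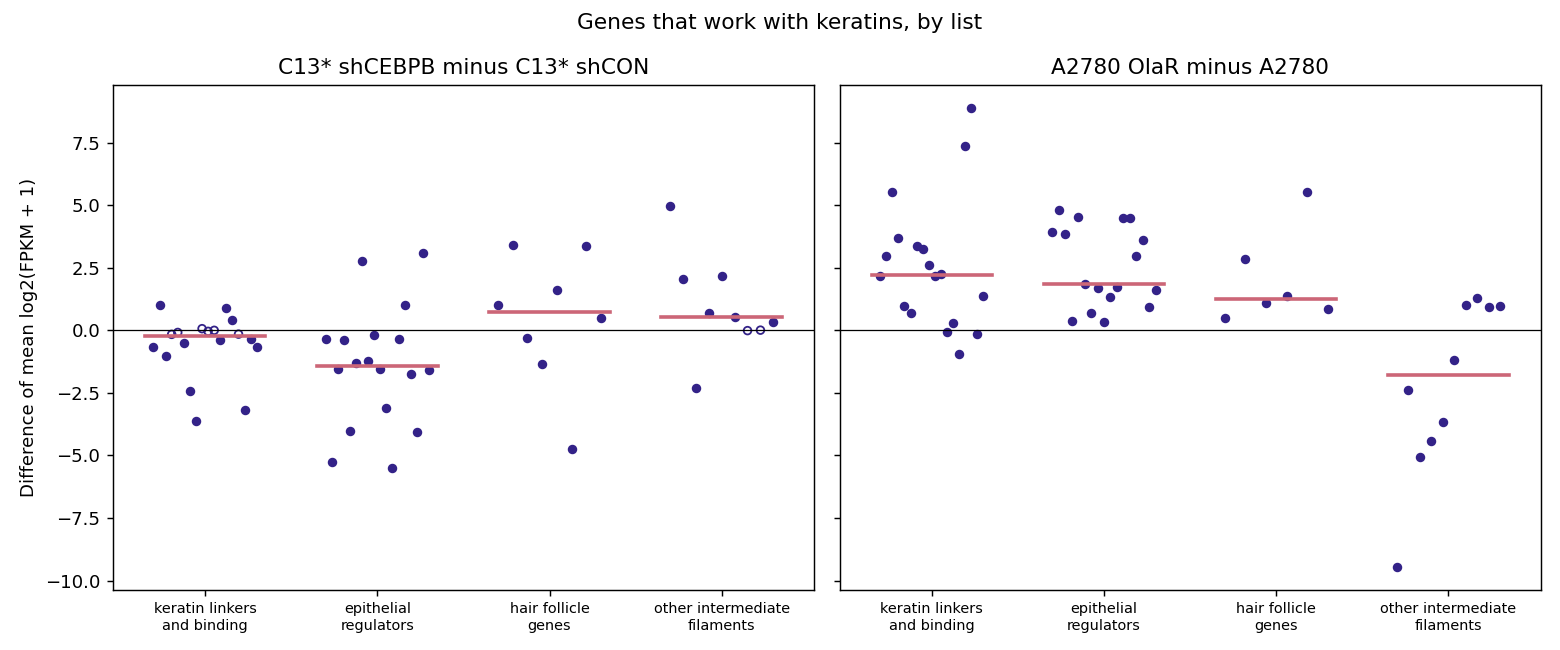
Difference of mean log2(FPKM + 1) of each tested gene on the 4 lists, for C13* shCEBPB minus C13* shCON (left) and A2780 OlaR minus A2780 (right). Filled points had a limma adjusted p under 0.05, open points did not, and the line is the median. For the epithelial regulators the median is -1.42 on the left and 1.86 on the right. Of these genes, 8 of 18 on the left passed the filter through C13* shCON alone, and 6 of 17 on the right through A2780 OlaR alone.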

How the data were processed

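mRNA of 31 libraries was sequenced. Per the study's methods, paired-end reads of 150 bases were aligned to hg38 by TopHat and assigned to genes by HTSeq. The authors deposited FPKM in 1 table. The FPKM tool, gene annotation and strand setting are not given in the sources used here. Leaving out 4 entries that repeat 2 symbols gave 19221 genes, of which 1212 were at 0 in every library. No pair of libraries was identical. The methods call the replicates biological.

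The keratins and the gene lists were chosen with earlier results of these data known. Named were all 10 keratins, CEBPB, the 2 largest rises and 2 largest falls with an adjusted p under 0.05 on each list, and the 3 nearest genes of each member at 10 FPKM or more. Of these, 2 genes are not reported here.

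Other genes were tested with limma 3.58.1 in R 4.3.3 (two-sided, Benjamini-Hochberg) on log2(FPKM + 1), each comparison on its own 2 groups, for genes that reached 1 FPKM in a number of libraries no less than the size of the smaller group. The fit was tested on simulated data. Python 3.11.15, numpy 2.4.6, pandas 2.3.3 and matplotlib 3.10.9 were used. Alternatives were pseudocounts of 0.1 and 0.01, other filters and scalings, 1 fit of all 4 groups, a replicate block and library ranges, and, chosen after seeing the data, leaving out C13* shCON replicate 1. GENCODE 44 gave positions.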

Additional observations from a re-analysis of the deposited data

Results flagged for a closer look

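In 4 of the 39 member and group pairs examined, the highest or lowest library stood apart from the rest of its group by Dixon's test, which chance does in about 1 in 20 groups. KRT20 was 0.188 FPKM in C13* shCON replicate 4, where the next library had 0.0244. It was 0.0276 in A2780 OlaR replicate 3, with 0 in the 7 others, and KRT23 was 0.0278 in A2780 replicate 5, with 0 in the 7 others. Where all other libraries are at 0, any value above 0 is flagged, so the rate of 1 in 20 does not apply. KRT20 was also at 0 in 4 of the 7 C13* shCON libraries. KRT86 was 4.63 FPKM in C13* shCEBPB replicate 3, the lowest of the group, with the next at 6.29, and that library lay above every library of the other groups.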

How the results depend on the processing

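The number of genes called ranged from 7991 to 12746 for C13* shCEBPB against C13* shCON (10166 in the report) and from 8949 to 13711 for A2780 OlaR against A2780 (11190), lowest with a filter at 5 FPKM and highest without a filter. With that filter 3 of the other intermediate filament genes were called between the C13* groups in place of 7, since fewer genes were tested. The other 104 counts of called genes stayed within 1.5 times. Quantile normalization moved the median of all genes to -0.01 and -0.02. Of the differences of the keratins under an alternative, 88 stayed within the spread between replicates and 42 did not. Among the other named genes, 299 values kept their direction and call. YWHAZ turned from -0.14 to 0.11 and CEBPB from 0.16 to -0.055 for A2780 OlaR against A2780 within libraries 1 to 3, and the cause was not tested. CEBPB in the A2780 groups was also not called with a common sum or in 1 fit of all 4 groups.

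With the replicate number as a replicate block, 9885 and 10960 genes were called. The block removed the calls of YWHAZ and of CEBPB in the A2780 groups. Libraries with the same replicate number did not deviate together (mean correlation -0.15 over 7 pairs and -0.23 over 8 pairs, with 2 and 1 pairs over 0.1). The replicate numbers are therefore not taken to pair the libraries. Replicates 6 and 7 of C13* shCON carry library numbers 7 and 8, so pairing by library number was not checked for them.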
